A study of Mus musculus with 10 samples.

Results

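The regions described here are those assigned to genes of the extracellular matrix and of the proteins that grip, cut or modify it: collagens, laminins, fibulins, thrombospondins, integrins, ADAM and ADAMTS family members, matrix metalloproteinases (MMP), their tissue inhibitors (TIMP) and the heparan sulfatases (SULF). A listed region belonged to the set when the protein-coding gene body nearest to it, in the RefSeq annotation of GRCm38 (the same coordinates as mm10), had a symbol of 1 of these families. There were 88 such regions of 5327 listed, nearest to 44 genes of 3148. The rule itself uses gene symbols and positions of listed regions, not levels or fold changes.

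Accessible chromatin was measured by ATAC-seq, in which a transposase cuts and tags open DNA, in nuclei of mouse atria at 8 to 12 weeks of age. The left and right atria of each mouse were combined, and nuclei stained for PCM1, a centriolar satellite protein found around cardiomyocyte nuclei, were sorted by flow cytometry. The control group had 6 libraries of 4 animals, with 2 libraries each for animals 1 and 3, and the Prrx1(R1A)-/- group had 4 libraries of 4 animals. Prrx1(R1A)-/- animals are homozygous for an altered noncoding region of the Prrx1 locus, the transcription factor gene named in the title of the study. The sources used here do not state the bounds of the allele, nor the strain or sex of the mice. The comparison asks where chromatin accessibility differs between the 2 genotypes.

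In muscle, each cell is wrapped in a basement membrane built on networks of laminin and collagen IV, and interstitial collagen fibrils lie between cells. Integrins, heterodimers of an alpha and a beta chain, bind these proteins outside the cell and couple them to the cytoskeleton inside it. ADAM and membrane-type MMP proteases release or cut proteins at the cell surface, secreted ADAMTS proteases process procollagen and proteoglycans, TIMP proteins inhibit these enzymes, and the sulfatases trim heparan sulfate chains, which alters how they hold growth factors. Most structural matrix genes are best known for their expression in fibroblasts, while cardiomyocytes make basement membrane components and integrins.

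Few of the regions lay at a gene's start, and the share over all listed regions was not counted. Of the 44 genes, 35 had an annotated start site in the RefSeq promoter table, which covers 75 regions, and the counted bin of 2 of these regions had its middle within 1 kb of a start. Those 2 belong to Adamtsl5 and Adamtsl4, and their promoters are shown because a listed region covered each of these starts. The other 9 genes have no start in the promoter table, so a region at one of their starts could not be recognised. Among them, a lower Adamts15 region (chr9:30921501-30922750) runs past an end of its gene. Each sequence runs from 250 bases before to 50 bases after the start, from RefSeq on GRCm38, 5′ to 3′ on the minus strand, with CG dinucleotides in capitals.
Adamtsl5, chr10:80348399-80348698: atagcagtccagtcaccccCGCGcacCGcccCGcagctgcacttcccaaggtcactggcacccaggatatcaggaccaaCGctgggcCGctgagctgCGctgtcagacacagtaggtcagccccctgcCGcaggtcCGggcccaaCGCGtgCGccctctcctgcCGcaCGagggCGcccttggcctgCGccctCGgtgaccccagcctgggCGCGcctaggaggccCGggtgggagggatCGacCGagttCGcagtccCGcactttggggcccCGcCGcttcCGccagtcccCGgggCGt
Adamtsl4, chr3:95687868-95688167: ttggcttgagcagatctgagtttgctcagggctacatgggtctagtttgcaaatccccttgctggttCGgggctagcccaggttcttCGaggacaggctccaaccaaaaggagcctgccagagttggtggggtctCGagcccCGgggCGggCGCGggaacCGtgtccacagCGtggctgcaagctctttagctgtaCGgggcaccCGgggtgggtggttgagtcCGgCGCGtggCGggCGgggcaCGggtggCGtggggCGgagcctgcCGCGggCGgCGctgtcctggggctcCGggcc
Both windows are rich in CG. The Adamtsl5 window holds 29 CG dinucleotides with a GC content of 72%, and the Adamtsl4 window 24 with 68%, against a median of 7 and 52.7% over 32851 promoter windows. As many CG dinucleotides as these occur in 12.9% and 20.0% of all windows. The motif GGGCGG, searched on both strands, matched 1 time in the Adamtsl5 window and 4 times in the Adamtsl4 window, and 35.7% of all windows hold it. The letters CACGTG, held by 7.15% of all windows, were in neither window on either strand. Neither were TGANTCA, held by 7.81%, AGATAA, held by 11.2%, or GGAATG, held by 14.7%.

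The authors listed 52 of the 88 regions as higher and 36 as lower in Prrx1(R1A)-/- animals. Of all listed regions 66.7% were higher and 33.3% lower, so the share of higher regions among the members, 59.1%, was close to the background. Among the genes, 21 had higher regions alone, 18 had lower regions alone, and 5 had both. An adjusted p under 0.01 in the authors' deposited table was given to 40 of the 88 regions. Because the table holds only regions already called on these animals, its p-values, and those given below, describe selected regions and are not independent evidence that a region differed. In these bulk libraries, a change in the mix of nuclei and a change in accessibility per nucleus cannot be told apart. A gene with no listed region was not shown to be unchanged, and being nearest to a gene is no evidence that a region regulates it.

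All levels below are reads in the 500 bp bin that stands for a region, after scaling, here called scaled reads. The scale was set so that no change between the 2 groups falls where the authors' own fold changes place it. Fold changes are log2 of Prrx1(R1A)-/- over control from edgeR's quasi-likelihood test on that scale, with the standard error (SE) and a Benjamini-Hochberg adjusted p over all 5327 regions. They are mostly larger in size than the authors' deposited ones. Their medians are 0.96 against 0.79 for higher members and -0.99 against -0.81 for lower ones. On this scale the test called 66.7% of all regions higher and 33.3% lower, which is the whole table, and so all 88 members. Under TMM scaling, which takes most regions as unchanged, log2 fold changes were about 0.60 lower. The table holds called regions alone, so it does not meet that assumption, and TMM scaling serves here as a contrast only. TMM scaling then called 18.5% of all regions higher and 33.3% lower, and of the members 15 higher and 36 lower, with 37 not called. The shift makes losses larger in size, so that lower regions stay called under TMM scaling is no test of them. Of the regions that TMM scaling called, 29.4% were higher among the members and 35.7% in the whole table.

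The size of the differences was like that of the table as a whole. Higher members had a median log2 fold change of 0.96 (0.49 to 2.27), against 1.01 for all higher regions, and lower members a median of -0.99 (-1.36 to -0.59), against -0.97. The median level of the higher members was 49.9 scaled reads in controls and 94.1 in Prrx1(R1A)-/- animals, and that of the lower members was 60.2 and 29.2. All 4 Prrx1(R1A)-/- animals lay above all 4 controls in 45 of the 52 higher members, and below them in 32 of the 36 lower ones. These are 86.5% of the higher and 88.9% of the lower members, against 90.7% and 88.7% of all higher and all lower regions listed, so the members were separated about as often as the table as a whole. As shares of all 5327 regions, 60.4% were separated upward and 29.6% downward. The overlapping members were regions of Adamts12, Adamtsl4, Adamtsl5, Sulf1, Sulf2, Itga11 and Itgax among the higher, and of Adamts5, Mmp15, Col4a1 and Lama2 among the lower.

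**Figure D1:**
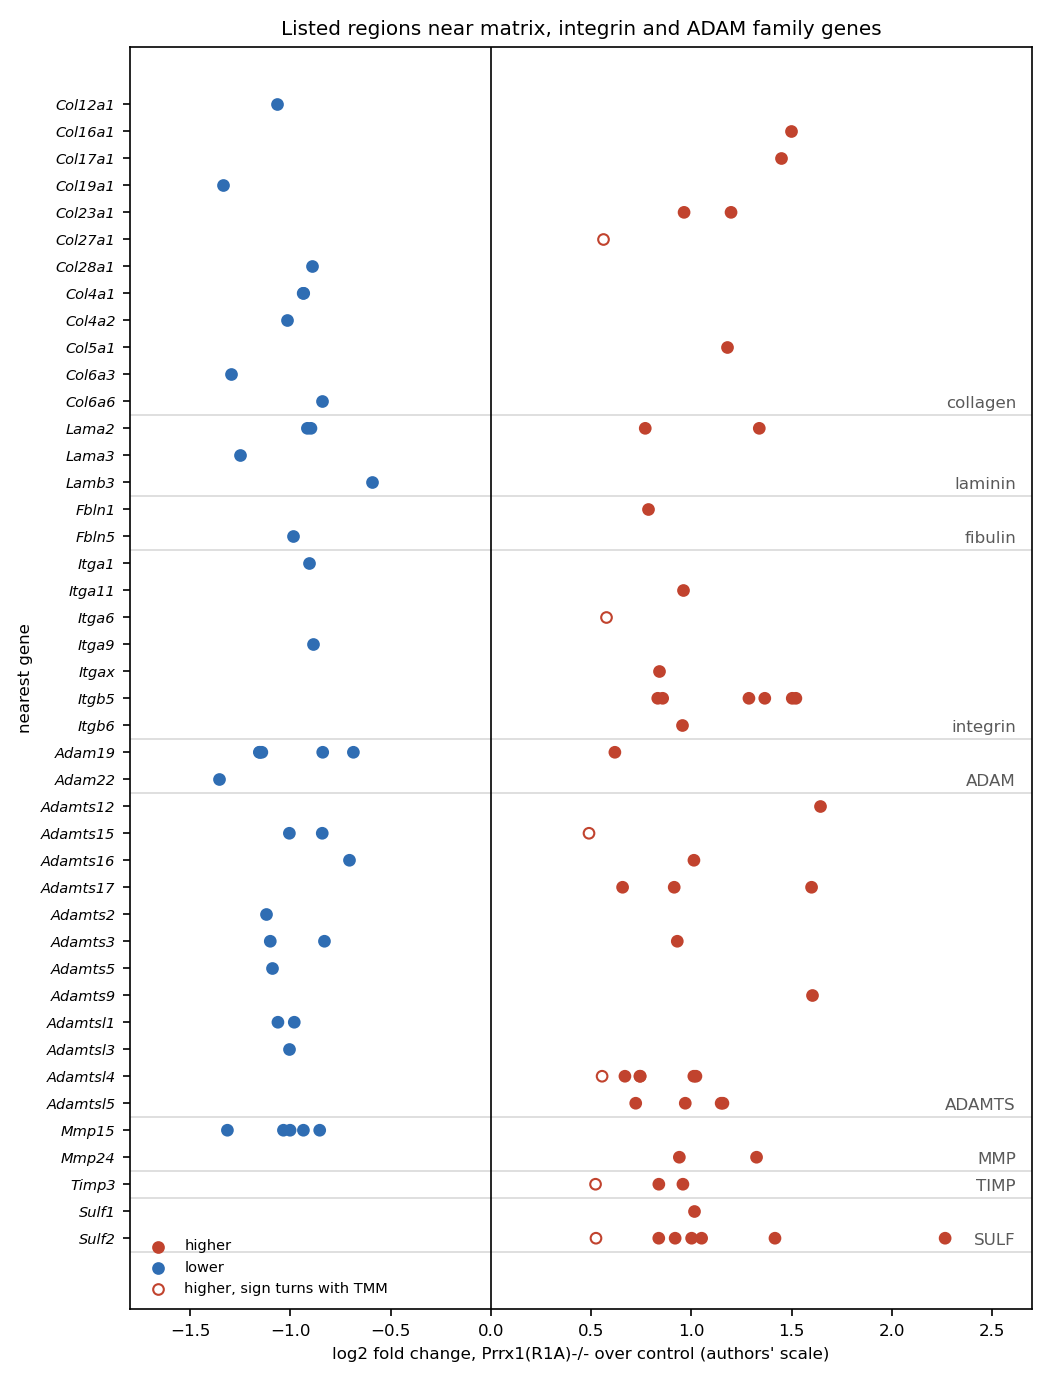
Log2 fold change (Prrx1(R1A)-/- over control, edgeR, authors' scale) of the member regions reported here, by gene and family; red marks higher and blue lower regions, and open symbols the regions whose sign turns with TMM scaling. Sulf2, Itgb5 and Adamtsl4 carry 6 or 7 regions that are all higher on this scale (1 Sulf2 and 1 Adamtsl4 region turn with TMM scaling), and all 5 Mmp15 regions are lower.

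By position, the members lay more often within gene bodies than listed regions in general. The bin was inside the gene in 67 of the 88 regions (76.1%), against 60.9% of the whole table, and this difference was not tested. For genes with 3 or more listed regions, the shares were 76% of member regions and 67.4% of all. Gene length was not taken into account. Of the 21 members outside their gene, 4 were more than 50 kb from it. The median distance of the 75 bins from the nearest annotated start of their gene was 30.2 kb, with 5 within 2 kb. Exons and introns could not be told apart with the annotation used here. Median region width was 750 bp (500 to 3750).

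Collagen regions divided between gain and loss. Of 14 regions at 12 genes, 6 were higher and 8 lower, and no gene had both, while 44 genes with a collagen symbol are annotated. The higher ones belonged to the membrane-spanning collagens Col17a1 and Col23a1 (2 regions), the fibril-associated Col16a1, and the fibrillar Col5a1 and Col27a1. The lower ones belonged to Col4a1 (2 regions) and Col4a2, the paired chains of basement membrane collagen IV, to Col6a3 and Col6a6, chains of the microfibrillar collagen VI, to the fibril-associated Col12a1 and Col19a1, and to Col28a1. With TMM scaling 4 of the 6 higher and all 8 lower regions were called, and the Col27a1 region turned from 0.56 to -0.05 (adjusted p = 0.786, edgeR). No region was listed for Col1a1, Col1a2 or Col3a1, the chains of the main interstitial fibrils.

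The Col17a1 region (chr19:47654501-47655750, inside the gene, with the next gene, Slk, 9.76 kb away) had 72.0, 47.1, 49.3 and 35.2 scaled reads in controls 1 to 4. It had 161, 127, 148 and 142 in Prrx1(R1A)-/- animals 1 to 4. Every Prrx1(R1A)-/- animal was above every control, at 50.9 ± 15.4 against 144 ± 13.8 (SD, n = 4 each), a log2 fold change of 1.45 (SE 0.19, edgeR adjusted p = 9.93e-07). COL17A1 is a hemidesmosome collagen best known from skin.

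At Col23a1 (chr11:51342751-51344000), inside the gene, controls had 50.5, 63.6, 74.4 and 69.2 scaled reads and Prrx1(R1A)-/- animals 172, 147, 134 and 135. These groups were also apart, with a log2 fold change of 1.20 (SE 0.17). At Col16a1 (chr4:130036751-130037750), 10.3 kb from the gene, controls had 52.1, 30.6, 27.4 and 18.9 and Prrx1(R1A)-/- animals 107, 83.6, 69.2 and 129, a log2 fold change of 1.50 (SE 0.25). Control 1 was the highest control at both Col17a1 and Col16a1.

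Among the lower collagen regions, that of Col6a3 (chr1:90732501-90734750), 33.6 kb from the gene, had 103, 70.7, 109.7 and 113 scaled reads in controls and 45.6, 44.8, 37.9 and 35.1 in Prrx1(R1A)-/- animals. The lowest control was well above the highest Prrx1(R1A)-/- animal, and the log2 fold change was -1.30 (SE 0.20, edgeR adjusted p = 5.45e-06). The 3 collagen IV regions were within a narrow range, -1.02 to -0.93 in log2 fold change. That of Col4a2 lay inside the gene, and those of Col4a1 lay 15.2 kb and 23.7 kb outside theirs.

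Laminins, trimers of an alpha, a beta and a gamma chain, had 7 regions at 4 genes, all inside the gene, with 3 higher and 4 lower. Lama2, the alpha chain of the muscle basement membrane, whose loss causes a congenital muscular dystrophy, had 2 higher and 2 lower regions across 201.75 kb of its body. In order from the start they were lower, higher, lower and higher, with log2 fold changes of -0.90, 0.77, -0.92 and 1.34. Lama3 and Lamb3, best known from epithelia, had 1 lower region each, and that of Lamb3 had a log2 fold change of -0.59. With TMM scaling 1 of the 3 higher and all 4 lower laminin regions were called.

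The farthest Lama2 region (chr10:27084501-27085250) had 52.1, 14.1, 22.8 and 16.4 scaled reads in controls and 71.1, 68.7, 100.4 and 55.1 in Prrx1(R1A)-/- animals. The groups did not overlap, but control 1 stood close to the lowest Prrx1(R1A)-/- animal. The log2 fold change of 1.34 (SE 0.28, edgeR adjusted p = 0.000167) became 1.95 without control 1. The Lama3 region (chr18:12435251-12436000) had 49.4, 47.1, 62.3 and 81.8 in controls and 26.3, 25.9, 22.7 and 26.7 in Prrx1(R1A)-/- animals, which were nearly alike, with a log2 fold change of -1.25 (SE 0.24).

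Fibulins, glycoproteins of basement membranes and elastic fibres, had 1 higher and 1 lower region, both inside the gene. Fbln1 (chr15:85230001-85230750) had 86.2, 89.5, 72.5 and 88.04 scaled reads in controls and 143, 133, 151 and 145 in Prrx1(R1A)-/- animals. Fbln5 (chr12:101777501-101778250), needed for elastic fibre assembly, had 63.6, 89.5, 86.5 and 57.9 in controls and 25.4, 45.8, 39.8 and 38.4 in Prrx1(R1A)-/- animals. Each pair of groups was separate, with log2 fold changes of 0.78 (SE 0.16) and -0.99 (SE 0.23), and the Fbln1 value was 0.18 and not called with TMM scaling (adjusted p = 0.311, edgeR). The 4 thrombospondin genes had no listed region.

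Integrin regions were mostly higher on the authors' scale. Of 12 regions at 7 genes, 10 were higher (83.3%, against 66.7% of all listed regions) and 2 lower, and 6 of the 10 were at 1 gene, Itgb5. With TMM scaling 4 were called higher and 2 lower. All 7 regions of beta chains were higher on the authors' scale, 6 at Itgb5 and 1 at Itgb6, chains that pair with alpha V to bind vitronectin or latent TGF-beta. Alpha chains were mixed, with Itga6 (a laminin receptor chain), Itga11 (a collagen receptor chain) and Itgax (CD11c, of myeloid cells) higher, and Itga1 (a collagen receptor chain) and Itga9 (a receptor chain for tenascin and other ligands) lower. With TMM scaling 4 of the 7 beta chain regions were called higher, none of the 3 higher alpha chain regions was called and the Itga6 value turned to -0.03, while both lower ones were called. The Itga6 bin lay 59.1 kb outside its gene. Itgb1, the common beta chain, Itga7, the laminin receptor chain of mature muscle, and Itgav had no listed region.

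The 6 Itgb5 regions were spread through 99.0 kb of the gene body, between 4.34 and 102.6 kb from the start, with log2 fold changes of 0.83 to 1.52. The first of the 2 named (chr16:33836501-33837250), 7.09 kb from the start, had 21.6, 28.3, 24.2 and 12.6 scaled reads in controls and 62.3, 45.8, 68.2 and 73.4 in Prrx1(R1A)-/- animals, a log2 fold change of 1.52 (SE 0.25). The second (chr16:33932001-33932750) had 41.5, 25.9, 31.2 and 40.2 in controls and 109, 95.6, 72.0 and 68.4 in Prrx1(R1A)-/- animals, a log2 fold change of 1.29 (SE 0.21). At both, all Prrx1(R1A)-/- animals were above all controls (edgeR adjusted p = 1.20e-05 and 1.62e-05), and both were called with TMM scaling at 0.92 and 0.69.

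At Itga9 (chr9:118741001-118742000), inside the gene, controls had 137, 134, 129 and 118 scaled reads and Prrx1(R1A)-/- animals 79.0, 75.6, 67.3 and 55.1. Spread within each group was small against the gap, and the log2 fold change was -0.89 (SE 0.17, edgeR adjusted p = 6.74e-05).

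**Figure D2:**
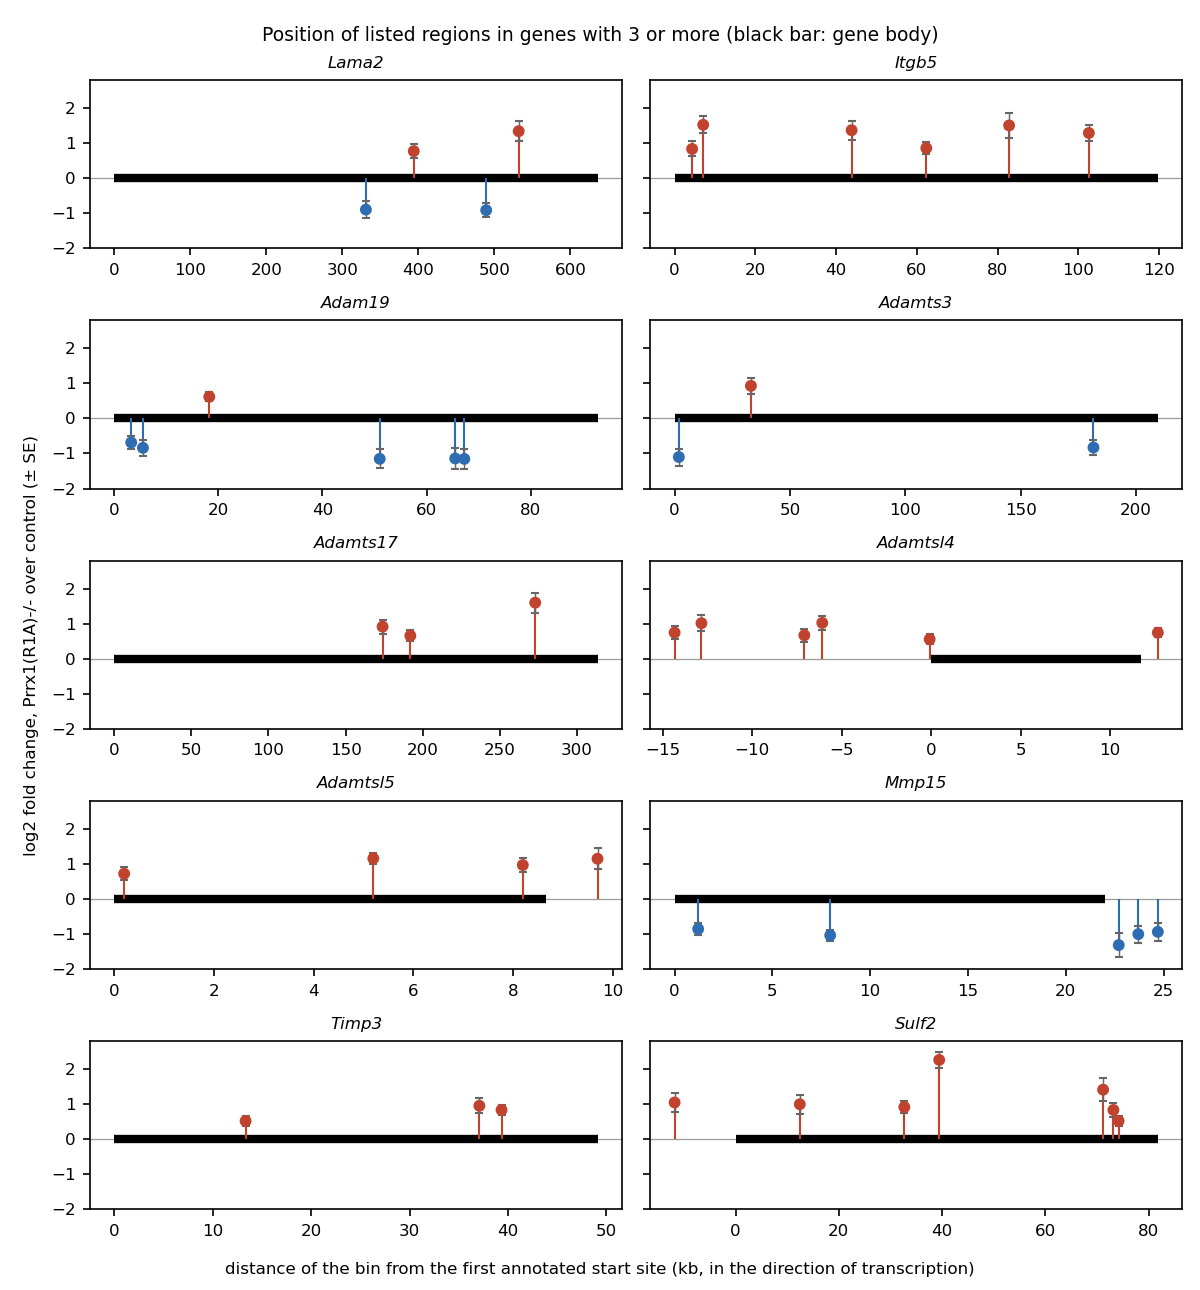
Log2 fold change with its SE (vertical axis, edgeR, authors' scale) against distance in kb from the first annotated start for the 10 genes with 3 or more regions and a start site; the black bar is the gene body, red regions are higher and blue lower in Prrx1(R1A)-/- animals. Regions of Itgb5, Sulf2 and Mmp15 run through or just past the gene with 1 sign each, and those of Lama2, Adam19 and Adamts3 hold both signs; with TMM scaling 1 region each of Sulf2, Adamtsl4 and Timp3 turns to a value just under 0.

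ADAM genes, which encode membrane-bound proteases and related receptors, had 7 regions at 2 genes. Adam19, a metalloprotease needed for heart valve and septum formation in mouse embryos, had 6 regions inside its body, 1 higher and 5 lower. The lower ones lay 3.25 and 5.50 kb from the first start (-0.69 and -0.84) and between 51.0 and 67.2 kb from it (-1.15, -1.14 and -1.16), and the higher one lay between these groups, at 18.2 kb. Adam22, which encodes a catalytically inactive receptor for secreted LGI proteins in neurons, had 1 lower region. All 6 lower regions were called with TMM scaling, as were all lower regions of the whole table. Adam10 and Adam17, the broad sheddases, had no listed region.

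The higher Adam19 region (chr11:46072501-46073000) had 186, 186, 178 and 151 scaled reads in controls and 274, 279.7, 293 and 227 in Prrx1(R1A)-/- animals. It had the highest level of the 6, with groups apart and a log2 fold change of 0.62 (SE 0.13), which was 0.02 and not called with TMM scaling (adjusted p = 0.909, edgeR). The Adam22 region (chr5:8356001-8358500) had 133, 193, 222 and 135 in controls and 56.1, 78.6, 52.1 and 83.5 in Prrx1(R1A)-/- animals. That loss, -1.36 (SE 0.20, edgeR adjusted p = 3.20e-06), was the largest in size among the 36 lower members in the edgeR fit. In the authors' deposited fold changes the Col6a3 region was slightly larger in size, at -1.152 against -1.151 for Adam22.

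The ADAMTS enzymes, secreted proteases with thrombospondin repeats, had 15 regions at 8 genes, 8 higher and 7 lower. Adamts2 and Adamts3, which remove the amino-terminal propeptide of fibrillar procollagens, had 1 lower region and 2 lower and 1 higher region. Among the proteoglycan-cleaving members, Adamts5 had 1 lower region, 439.1 kb away, and Adamts9 1 higher, 36.8 kb away. Adamts15 had 1 higher region, 54.4 kb away, and 2 lower, 1 of them 198.9 kb away. Adamts12 had 1 higher region, Adamts16 1 of each, the lower one 42.9 kb away, and Adamts17 3 higher. With TMM scaling 3 of the 8 higher and all 7 lower were called, and the higher Adamts15 region turned from 0.49 to -0.11 (adjusted p = 0.458, edgeR).

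The Adamts17 region with the smallest p (chr7:67112251-67113250), 273 kb from the start, had 53.6, 16.5, 17.7 and 13.8 scaled reads in controls and 95.6, 81.6, 88.1 and 75.1 in Prrx1(R1A)-/- animals. Control 1 stood far above the other controls, yet below every Prrx1(R1A)-/- animal. The log2 fold change was 1.60 (SE 0.29, edgeR adjusted p = 3.29e-05), and 2.38 without control 1.

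The Adamts3 region (chr5:89881251-89882000), 1.83 kb from the start, had 57.8, 65.9, 49.8 and 75.5 scaled reads in controls and 30.7, 38.8, 22.7 and 18.4 in Prrx1(R1A)-/- animals, a log2 fold change of -1.10 (SE 0.24). The Adamts15 region (chr9:30921501-30922750) had 69.4, 68.3, 60.0 and 70.4 in controls and 28.1, 37.8, 47.4 and 35.1 in Prrx1(R1A)-/- animals, a log2 fold change of -0.84 (SE 0.22). Both were lower in each Prrx1(R1A)-/- animal than in any control.

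ADAMTS-like genes encode secreted relatives without a protease domain, several of which bind fibrillin microfibrils. They had 13 regions, 10 higher and 3 lower: Adamtsl4 6 higher, Adamtsl5 4 higher, Adamtsl1 2 lower and Adamtsl3 1 lower. With TMM scaling the 3 lower regions and 1 Adamtsl5 region were called, and 1 Adamtsl4 region turned in sign. The Adamtsl4 regions span 27.75 kb, from beyond the end of the gene to 14.3 kb before its start, and no other protein-coding gene was nearer to any of them than 11.8 kb. The Adamtsl5 regions span 10.75 kb, and Reep6 is 2.06 kb from the outermost one.

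At the Adamtsl4 start, whose promoter is printed above, the bin holds the whole window and had 133, 118, 132 and 138 scaled reads in controls and 206, 172, 207 and 182 in Prrx1(R1A)-/- animals. The log2 fold change was 0.55 (SE 0.14) on the authors' scale and -0.05 with TMM scaling (adjusted p = 0.773, edgeR), so its direction depends on the scale. At the Adamtsl5 start, where the region covers the whole window and the bin 102 of its bases, controls had 69.9, 63.6, 52.5 and 75.5 and Prrx1(R1A)-/- animals 113, 101, 101 and 113, a log2 fold change of 0.72 (SE 0.18) that was 0.12 and not called with TMM scaling (adjusted p = 0.532, edgeR). Groups were apart at both starts. These 2 regions were chosen for their position, with their values known.

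The widest member, 3750 bp, was the Adamtsl5 region with the smallest p (chr10:80342501-80346250), inside the gene. It had 105, 70.7, 84.6 and 86.8 scaled reads in controls and 183, 195, 219 and 195 in Prrx1(R1A)-/- animals, a log2 fold change of 1.16 (SE 0.15, edgeR adjusted p = 9.93e-07). The Adamtsl4 region past the end of the gene (chr3:95675001-95676000) had 139.9, 200.2, 159.5 and 189 in controls and 271, 272, 311 and 274 in Prrx1(R1A)-/- animals, a log2 fold change of 0.74 (SE 0.14). The groups did not overlap at either, and with TMM scaling the first was called at 0.56 and the second was not, at 0.14 (adjusted p = 0.358, edgeR).

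The Adamtsl3 region (chr7:82422001-82423500), inside the gene, had 86.8, 115, 99.98 and 95.6 scaled reads in controls and 35.1, 59.7, 41.7 and 61.8 in Prrx1(R1A)-/- animals. Here every Prrx1(R1A)-/- animal was below every control, with a log2 fold change of -1.01 (SE 0.20).

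Both MMP genes with regions encode membrane-type proteases. Mmp15 had 5 lower regions and Mmp24 2 higher ones, while Mmp2 and the other 20 annotated genes of the family symbol had none. The Mmp15 regions span 24.0 kb. The first lies 1.20 kb from the start and the last 3 close together just past the gene, 22.7, 23.7 and 24.7 kb from the start, with log2 fold changes of -0.85 to -1.31 over the 5. All 5 were called with TMM scaling, as were all lower regions of the whole table. Neither Mmp24 region was called. The Mmp15 region with the smallest p (chr8:95359001-95361000), 7.95 kb from the start, had 173, 217, 201 and 241 scaled reads in controls and 93.9, 108, 87.2 and 117 in Prrx1(R1A)-/- animals. The groups were well apart, with a log2 fold change of -1.04 (SE 0.15, edgeR adjusted p = 4.68e-06).

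Timp3, the inhibitor that stays bound to the matrix and acts on ADAM, ADAMTS and MMP proteases, had 3 regions, all higher on the authors' scale. All of them also lie within the body of Syn3, a synapsin gene that overlaps Timp3, so the assignment is shared. The region with the smallest p (chr10:86339251-86340250) had 115, 167, 122 and 149.7 scaled reads in controls and 242, 209, 272 and 239 in Prrx1(R1A)-/- animals. Groups were apart, and the log2 fold change was 0.84 (SE 0.15). With TMM scaling this region was not called (0.24, adjusted p = 0.165, edgeR), nor were the other 2, of which 1 turned to -0.08. Timp1, Timp2 and Timp4 had no listed region.

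Sulfatase regions were all higher on the authors' scale, with 7 at Sulf2 and 1 at Sulf1, and 2 of the 8 were called with TMM scaling, with 1 Sulf2 region turning to -0.07. The Sulf2 regions span 86.5 kb, from 11.8 kb before the first start to 74.2 kb inside, with log2 fold changes of 0.52 to 2.27. The largest gain of all 88 members was among them (chr2:166115751-166116750), 39.4 kb from the start. It had 20.0, 16.5, 22.3 and 30.2 scaled reads in controls and 103, 82.6, 129 and 120.2 in Prrx1(R1A)-/- animals, so the lowest Prrx1(R1A)-/- animal was above the highest control by a wide margin. The means were 22.2 ± 5.81 and 109 ± 20.4 (SD, n = 4 each), with a log2 fold change of 2.27 (SE 0.22, edgeR adjusted p = 1.18e-08) and of 1.66 with TMM scaling. In the authors' deposited table it has a log2 change of 1.90 with the sign turned (adjusted p = 6.16e-17).

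**Figure D3:**
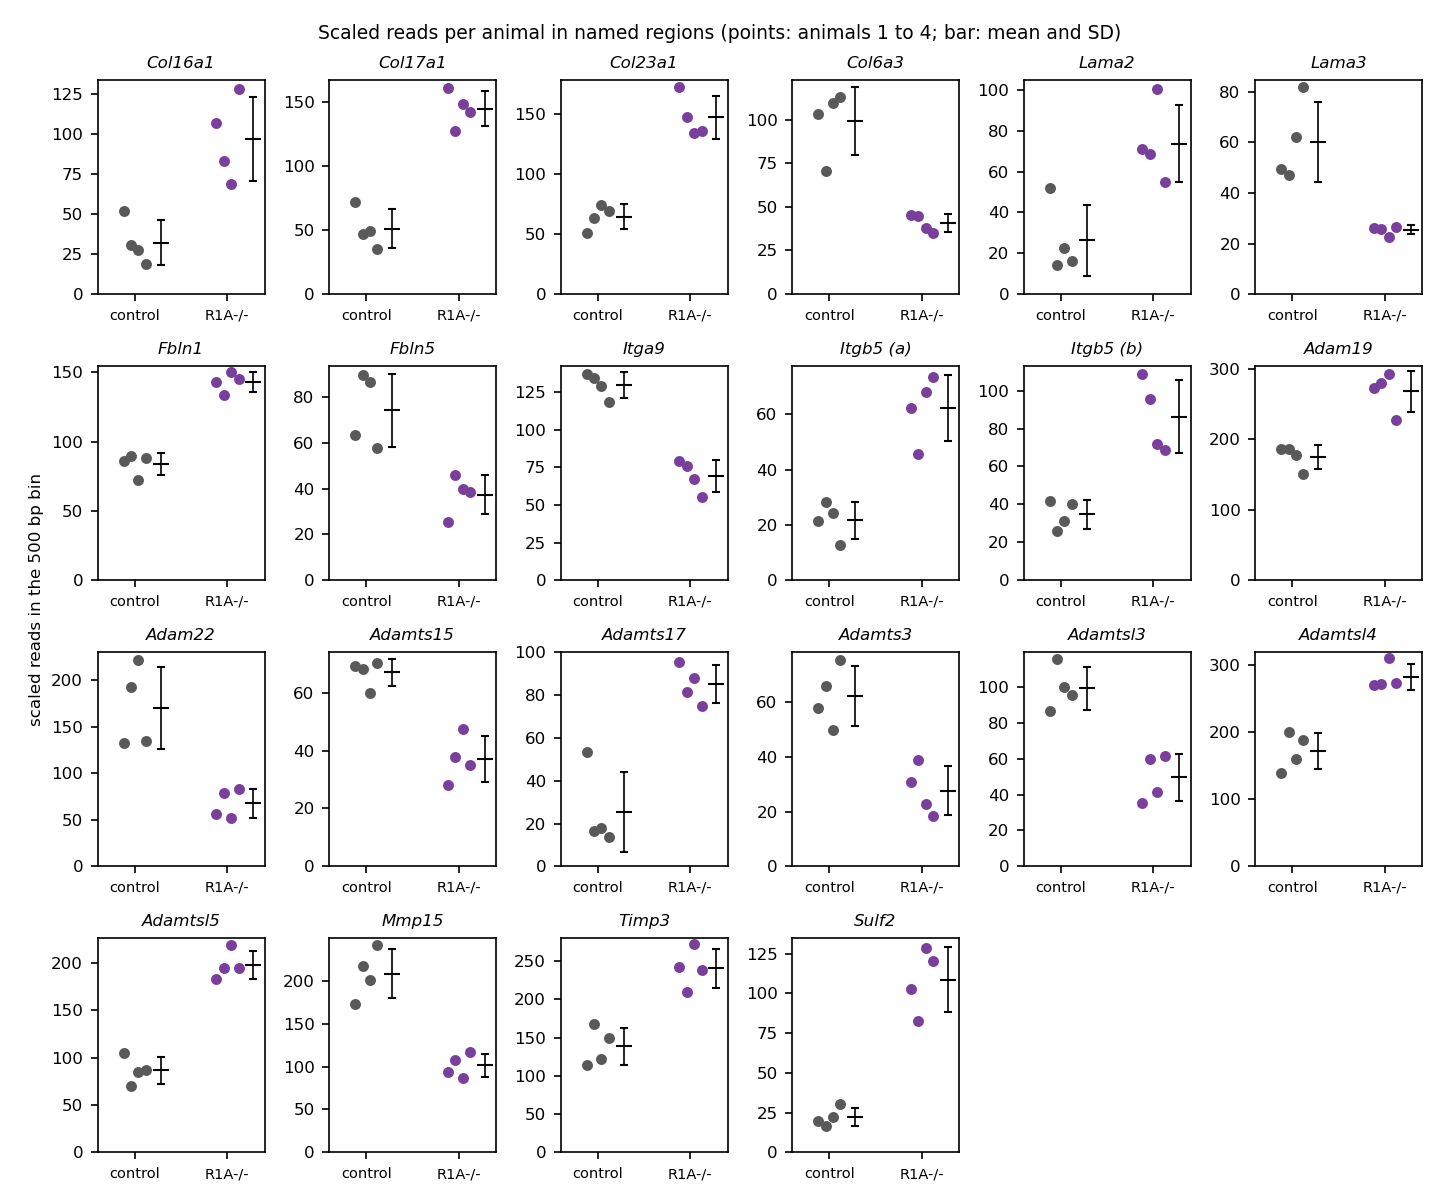
Scaled reads (vertical axes, from 0) of each animal in the 22 named regions, with the mean and SD of the 4 animals per group; "R1A-/-" stands for Prrx1(R1A)-/-, and Itgb5 (a) and (b) are its first and second named region. Control 1 stands above the other controls at Adamts17 (53.6 against 13.8 to 17.7) and Lama2 (52.1 against 14.1 to 22.8).

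**Figure D4:**
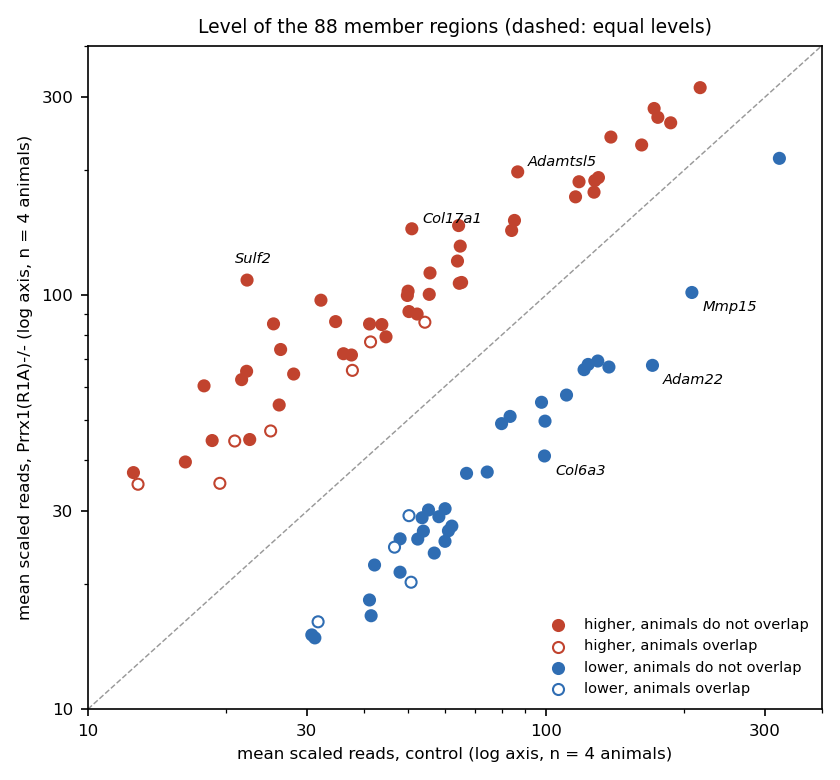
Mean scaled reads in Prrx1(R1A)-/- animals against control animals for the 88 members (4 animals per group, both axes logarithmic, line of equality drawn); filled symbols are the 77 regions whose animals do not overlap between groups. Members cover control means from 12.6 to 323 scaled reads, and the Sulf2 region at 22.2 and 109 lies farthest above the line.

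Other genes of the matrix and of the adhesion machinery, 93 in a list of 5 groups, gave 55 listed regions at 30 genes, 35 higher and 20 lower on the authors' scale. The share of higher regions, 63.6%, was close to the 66.7% of all listed regions, and TMM scaling called 6 higher and 20 lower. The median log2 fold change of the higher was 0.93 and of the lower -0.98, close to 1.01 and -0.97 in the whole table. Basement membrane and proteoglycan genes had 11 regions at 8 of 20 genes, and all were higher on the authors' scale, with 4 called by TMM scaling and none turning in sign. They were Sdc1 with 3, Nid1 with 2, and Sdc4, Gpc1, Gpc3, Hspg2, Dag1 and Prelp with 1 each. Perlecan (Hspg2), a heparan sulfate proteoglycan of basement membranes, went from 29.8 ± 10.5 to 78.2 ± 16.8 scaled reads (SD, n = 4), and nidogen (Nid1), which links laminin and collagen IV networks, from 47.4 ± 11.3 to 129 ± 35.0. The glypicans Gpc1 and Gpc3, heparan sulfate proteoglycans held at the membrane, went from 25.8 ± 5.69 to 55.7 ± 11.6 and from 12.7 ± 2.36 to 41.4 ± 11.0. In these 4 regions the log2 fold changes were 1.29, 1.39, 1.20 and 1.65. The Hspg2 bin lay inside the gene, and those of Nid1, Gpc1 and Gpc3 lay 34.5, 81.9 and 34.2 kb outside theirs.

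Regions at genes for collagen modification and folding were mostly lower. Of 7 regions at 5 of 16 genes, 6 were lower (85.7%, against 33.3% of all listed regions). They were at P4ha1 (2), Plod1, Plod2, Loxl2 and Serpinh1, which hydroxylate, crosslink or fold procollagen, and 1 region assigned to Plod2 was higher. The bin was inside the gene in 3 of the 6 lower regions, and 1 of the 7 lay more than 50 kb from its gene. All 6 lower ones were called with TMM scaling, as were all lower regions of the whole table. Among glycoproteins and elastic fibre genes, 6 regions were higher and 7 lower, and with TMM scaling none of the 6 higher and all 7 lower ones were called. A Ccn2 region, for a matricellular protein induced by TGF-beta, went from 412 ± 71.4 to 175 ± 13.7 scaled reads, and a Sparc region, for a collagen-binding glycoprotein, from 60.7 ± 12.3 to 19.7 ± 3.32 (SD, n = 4 each). The Sparc bin lay 12.9 kb outside its gene, with the next gene, Atox1, 13.1 kb away.

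Integrin adaptors had 13 higher and 5 lower regions at 8 of 18 genes on the authors' scale, and with TMM scaling 1 higher, that of Parva, and 5 lower regions were called. Of the 13 higher ones, 9 were at Tns1, a tensin that ties integrins to actin. Its region with the smallest p went from 76.4 ± 12.2 to 148 ± 18.4 scaled reads and was not called with TMM scaling (0.32, adjusted p = 0.105, edgeR). The Parva region, for a parvin of the complex around integrin-linked kinase, went from 23.2 ± 8.20 to 80.8 ± 8.82 (1.05 with TMM scaling). Lower regions were at Parvb, Tln2, Tns3, Vcl and Zyx. The group of protease inhibitors and receptors had 4 higher and 2 lower regions at 3 of 9 genes, with 1 higher and 2 lower at Lrp1, an endocytic receptor that clears proteases, and 1 higher at Ddr1, a collagen receptor kinase. With TMM scaling 1 region of this group turned in sign.

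As a check of the labels, the 2 regions nearest to Prrx1, 12.1 and 22.6 kb from the gene, had 54.7 ± 4.21 and 56.8 ± 20.7 scaled reads in controls and 1.49 ± 1.75 and 3.45 ± 1.27 in Prrx1(R1A)-/- animals (SD, n = 4 each). The listed bins held between 151976 and 521778 reads in a library, a sum that is not its depth. Over 57 markers of 7 cell types, 33 regions were higher (44.6%, against 66.7% of all listed regions) and 41 lower, and TMM scaling called 4 higher and 41 lower. Of 11 cardiomyocyte markers 7 had regions, 21 higher and 35 lower (1 and 35 called with TMM scaling), summing on the authors' scale to 4065 to 5229 scaled reads in controls and 3761 to 4265 in Prrx1(R1A)-/- animals. Of 12 fibroblast markers, 2 had a higher region each, Dpt and Fbln1, which summed to 103 to 136 and 211 to 277, while Pdgfra, Dcn, Lum, Tcf21 and Postn had none, and 5 of the 12 are matrix genes of the families described here. Endothelial markers had 2 higher and 4 lower regions (303 to 337 and 254 to 278), smooth muscle and pericyte markers 4 and 2 (342 to 429 and 422 to 449), and neural markers 2 and 0 (108 to 147 and 164 to 277). A single immune region, of Csf1r, had 13.5 to 25.8 and 36.9 to 59.7 scaled reads, and a single epicardial region, of Krt8, 11.8 to 27.9 and 32.2 to 62.7. The sums hold only regions already listed as different, so higher sums for cell types with higher regions alone follow from that selection. With TMM scaling 1 fibroblast, 1 endothelial and 1 neural region were called higher, and 0 immune, 0 epicardial and 0 smooth muscle and pericyte regions. Called lower were 4 endothelial and 2 smooth muscle and pericyte regions. Whether other cell types in the sort bear on the matrix regions was not tested.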

How the data were processed

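ATAC-seq had been run on PCM1-sorted atrial nuclei, read as pairs of 150 bp per the labels' protocols. Per the submitters' processing notes, BWA, bedtools and DESeq2 were used with build mm10; the sources used here do not state their roles, versions or filters, the shift for the transposase cut or the handling of duplicates. The deposited table lists called regions alone, each with 1 bin of 500 bp. Its columns are, per the file headers, the authors' counts per library, a group signal (the geometric mean of the counts, matched here to within 7.8e-10), a log2 fold change (control over Prrx1(R1A), sign turned here) and adjusted p-values, the highest 0.04999. The authors' counts hold 0.1 in 17 cells and 0 in none, so they were handled as estimated counts and rounded. The total depth of a library is unknown, since the table holds listed bins alone.

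Repeat libraries of controls 1 and 3 were summed, giving 4 animals against 4. Factors within a group were median ratios. The difference between groups was set from the authors' deposited log2 fold changes, as a linear function of the log2 ratio of the 2 deposited signals, using the 1432 regions where both signals were 50 or more (slope 0.874, scale difference 0.14 log2). Regions were tested with edgeR 4.0.16 (glmQLFit, glmQLFTest, R 4.3.3), and filterByExpr removed 0 regions. Benjamini-Hochberg adjustment was at 0.05 over 5327 regions. The fit was also run on simulated counts in which most regions were unchanged and the scale was known. That setting is unlike a table of called regions alone, so the run does not check the calls made here. The SE is the log2 fold change over the root of F. Separate animals are the replicates. Bins were assigned to the nearest of 21900 protein-coding gene bodies (RefSeq, GRCm38.p6). Alternatives were TMM and DESeq2 1.42.0 factors, the DESeq2 Wald test, no filter, separate libraries, a replicate block, leaving out each animal, and stricter thresholds or distances.

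Regions given animal by animal were, in each family, that with the smallest p, the 6 largest gains and losses in the authors' fold change among bins at or above the median level (1 per gene), and, for genes with 3 or more regions, that with the smallest p. The 2 start-site regions were added after their values were seen. The members and gene lists were chosen with earlier results of these data known. Values of some genes in the sets counted are not reported here.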

Additional observations from a re-analysis of the deposited data

Results flagged for a closer look

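Over the named regions, 44 groups of 4 animals were checked for a sample whose gap to its nearest neighbour exceeded Dixon's critical share of the range of the group, and 2 groups had one, where chance gives about 1 in 20. In the Adamts17 region, control 1 had 53.6 scaled reads and the other 3 controls 13.8 to 17.7. In the Adamtsl4 region past the end of the gene, Prrx1(R1A)-/- animal 3 had 311 scaled reads and the other 3 animals of its group 271 to 274.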

How the results depend on the processing

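All 36 lower members stayed called under each alternative fit or scale, leaving out single animals included (36 to 36). Regions were listed because they differed in these same animals, and the main fit called the whole table, so staying called is no independent check. The 52 higher members stayed called (52 to 52 without 1 animal), except that 15 were called with TMM factors and 15 with DESeq2's median-ratio factors, which leaves 4 named regions, of Timp3, Fbln1, Adamtsl4 and Adam19, uncalled under both. In the whole table TMM called 988 regions higher and 1776 lower, against 3551 and 1776. None of the 22 regions named by the rule reversed under any alternative run, while the Adamtsl4 start-site region went from 0.55 to -0.05 with TMM factors. At an authors' adjusted p under 0.01, 25 higher and 15 lower members were left, and counting 1 region per gene gave 22 and 22. Bins inside the gene alone left 40 and 27. The labels do not say whether animal numbers pair the animals. Deviations of same-numbered animals from their group means correlated at -0.04 to 0.26, with 1 of 4 pairs over 0.1. The 0.26 was for number 1, and animals of different numbers reached at most 0.08, so pairing was not settled. The fit with a replicate block called 52 higher and 36 lower, the same as the main fit, and so cannot decide it. Depth per library is unknown, so the limit it sets on weak regions could not be given.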
